A study of Mus musculus with 6 samples.

Results

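The 42 genes described here drive or mark the cell division cycle. They were chosen by gene symbol, as every probe set whose platform annotation names 1 of the 42 genes and no other. In all, 41 genes had such a probe set, with 79 probe sets among the 22626 that are not controls. No probe set carried the symbol Ccnb1 in the annotation used here, and 1 probe set that names Foxm1 together with other genes was not used. A gene was represented by its brightest tested probe set. Probe sets below the 40th percentile of mean log2 signal were not tested, which left 36 of the 41 genes and 58 of their 79 probe sets. Cdc6, Cdc45, Ccne1, E2f1 and Cenpe lay below that level at every probe set.

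RNA was taken from the proximal colon. The 2 groups were 3 wild-type mice and 3 mice of the genotype Mthfd1/+, which carry 1 gene-trap allele of Mthfd1 obtained from BayGenomics. Both groups were weaned at 3 weeks, ate the defined AIN-93G control diet for 5 weeks and were sampled at 8 weeks of age. Each array is labelled as a separate biological replicate. The sources used here do not state strain, sex or the site of the trap.

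Signals are linear intensities scaled to a common mean per array. Mthfd1, a cytosolic enzyme of folate metabolism, read 949.9, 838.6 and 881.4 in wild-type and 453.1, 509.6 and 549.4 in heterozygous colon at its brightest probe set (log2 fold change -0.80, SE 0.12; limma adjusted p = 0.121). Of 11 measured markers of colon epithelium, all 11 passed the filter, and the adhesion molecule Epcam read between 12578.7 and 13803.7. In whole tissue, fewer cells of a type and less RNA per cell cannot be told apart, and this holds for every gene below.

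In the colon, cells divide in the lower crypt and stop dividing as they move toward the surface. Before DNA synthesis, Cdc6 and Cdt1 load the Mcm2 to Mcm7 helicase onto origins, geminin (Gmnn) restrains Cdt1, Cdc45 joins the active helicase and Pcna clamps the polymerase to DNA. D-type and E-type cyclins with Cdk4 and Cdk2 carry the cell from G1 into S phase and release E2F factors, which activate the replication genes. Cdk1 with A-type and B-type cyclins, the Polo and Aurora kinases, the kinesins and the spindle checkpoint then run mitosis, and many of their genes are switched on late in the cycle through promoter elements called CHR and CCAAT, with Foxm1 among the activators.

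The promoters are shown because windows of replication and mitotic genes differ in their E2F and CHR elements. Whether these elements relate to the values of the arrays was not tested. RefSeq promoter windows of the GRCm38.p6 build, 250 bases before to 50 after the annotated start, were found for 33 of the 42 genes, as 36 windows. Prc1, Mcm7 and Ccnd3 have 2 windows each, and those of Prc1 overlap. Capitals mark the E2F octamers TTTCCCGC, TTTCGCGC, TTTGCCGC and TTTGGCGC, the CHR hexamers TTTGAA and TTCGAA, and CCAAT, each searched on both strands, so that GCGCCAAA, TTCAAA and ATTGG also count. Where E2F octamers overlap, the capitals run on. The windows run 5′ to 3′ on the gene's own strand. Mcm6 (chr1:128359656-128359955, minus strand) and Mcm5 (chr8:75109259-75109558, plus strand) stand for the replication genes:
Mcm6: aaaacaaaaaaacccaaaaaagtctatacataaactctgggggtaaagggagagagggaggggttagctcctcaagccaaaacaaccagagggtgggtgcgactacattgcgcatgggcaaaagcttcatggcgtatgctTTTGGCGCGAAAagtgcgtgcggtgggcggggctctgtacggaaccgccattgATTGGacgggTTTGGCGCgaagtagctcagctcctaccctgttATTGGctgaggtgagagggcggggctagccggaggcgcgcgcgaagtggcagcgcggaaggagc
Mcm5: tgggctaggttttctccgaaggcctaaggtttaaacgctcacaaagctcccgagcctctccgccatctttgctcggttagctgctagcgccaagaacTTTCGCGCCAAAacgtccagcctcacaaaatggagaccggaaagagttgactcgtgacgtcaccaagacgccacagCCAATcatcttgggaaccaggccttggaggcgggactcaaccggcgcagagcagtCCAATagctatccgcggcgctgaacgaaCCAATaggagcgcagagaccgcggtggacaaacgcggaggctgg
Cdk1 (chr10:69352863-69353162, minus strand) holds all 3 kinds of element:
Cdk1: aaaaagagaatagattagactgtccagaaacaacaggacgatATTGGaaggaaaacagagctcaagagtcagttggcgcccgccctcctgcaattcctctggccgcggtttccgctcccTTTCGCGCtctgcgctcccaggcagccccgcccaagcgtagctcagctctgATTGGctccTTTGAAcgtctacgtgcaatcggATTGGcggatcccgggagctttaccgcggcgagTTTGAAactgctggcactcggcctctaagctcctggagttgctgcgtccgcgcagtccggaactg
Mki67 (chr7:135716330-135716629, minus strand), Kif11 (chr19:37376132-37376431, plus strand) and Prc1 (chr7:80294201-80294500, plus strand) are shown too. These are the 3 of 21 tested mitotic genes whose heterozygous arrays all lay higher at the brightest probe set, against 5.59% of all genes:
Mki67: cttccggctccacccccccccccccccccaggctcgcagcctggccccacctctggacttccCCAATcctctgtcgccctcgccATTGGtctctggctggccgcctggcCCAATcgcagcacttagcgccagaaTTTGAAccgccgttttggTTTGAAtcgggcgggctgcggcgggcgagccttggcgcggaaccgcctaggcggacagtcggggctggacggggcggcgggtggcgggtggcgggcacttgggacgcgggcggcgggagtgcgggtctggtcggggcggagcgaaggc
Kif11: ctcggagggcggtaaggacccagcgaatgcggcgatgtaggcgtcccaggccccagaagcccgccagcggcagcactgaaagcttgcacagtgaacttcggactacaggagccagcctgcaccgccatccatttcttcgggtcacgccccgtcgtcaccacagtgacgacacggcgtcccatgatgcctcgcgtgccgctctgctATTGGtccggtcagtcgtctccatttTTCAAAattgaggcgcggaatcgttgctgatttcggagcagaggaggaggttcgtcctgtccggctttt
Prc1: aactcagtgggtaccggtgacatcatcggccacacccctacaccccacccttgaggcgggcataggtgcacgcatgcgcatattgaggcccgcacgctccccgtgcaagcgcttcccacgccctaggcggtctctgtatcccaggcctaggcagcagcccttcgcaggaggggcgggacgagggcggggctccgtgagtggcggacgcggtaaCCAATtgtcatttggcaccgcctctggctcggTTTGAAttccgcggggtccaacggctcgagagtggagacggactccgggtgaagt

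An E2F octamer was present in 5 of 8 replication windows and 1 of 20 mitotic windows, against 2.26% of all 32851 windows. Mcm6 held 3 octamer matches and Mcm5 held 2. The Mcm5 matches, starting at -153 and -149, overlap, as do the Mcm6 matches at -110 and -106, so the matches are not all separate sites. A CHR hexamer was present in 15 of 20 mitotic windows, 2 of 8 replication windows and 0 of 6 windows of the G1/S regulators, against 19.2% of all windows. CCAAT was present in 17 of 20 mitotic and 7 of 8 replication windows, against 37.4%. These are matches of letters in the reference and were not measured as binding in these samples. All windows here include those of non-coding genes.

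Across the tested genes, most fold changes were positive with all arrays, and no gene passed the test. Of 36 tested genes, 29 had a positive log2 fold change, with a median of 0.19, whereas 51.6% of all 8241 tested genes were positive, with a median of 0.01. With the genes below the filter included, 31 of 41 were positive. When wild-type replicate 2 was left out, 21 of the 36 tested genes were positive, against 48.9% of all tested genes. None of the 36 passed limma at an adjusted p of 0.05 (smallest 0.701 over their probe sets), as in all genes, of which 0% passed. At an unadjusted p under 0.05, 4 were higher (Bub1, Prc1, Mki67 and Top2a) and 0 lower, against 3.18% and 2.22% of all genes, 5.40% together. In 3 genes, Mki67, Kif11 and Prc1, every heterozygous array lay above every wild-type array, and in Ccnd3 every one lay below, against 5.59% and 5.06% of all genes. These counts of 3 and 1 among 36 lie close to the background.

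**Figure D1:**
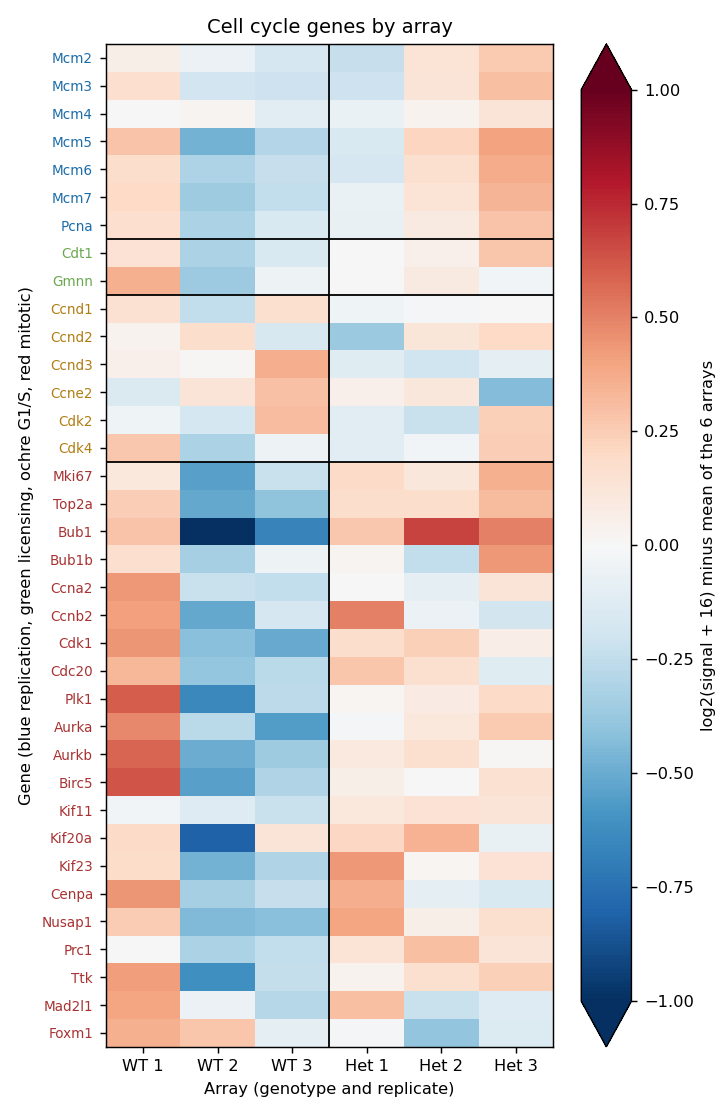
Each row is 1 of the 36 tested cell cycle genes and each column 1 array; colour gives log2(signal + 16) minus the gene's mean over the 6 arrays, with gene names coloured by group. Wild-type replicate 1 stands above wild-type replicates 2 and 3 in all 21 mitotic rows, and heterozygous replicate 3 is the highest array in all 7 replication rows.

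A score per array was taken as the mean, over a group's tested genes, of log2(signal + 16) minus the gene's mean over the 6 arrays. The mitotic score was 0.33, -0.42 and -0.28 in wild-type replicates 1, 2 and 3, and 0.18, 0.08 and 0.12 in the heterozygous arrays. Wild-type replicate 1 was thus the highest of the 6 arrays and the other two wild-type arrays were the lowest, so the genotypes overlapped. The replication score was 0.15, -0.24 and -0.20 in wild-type and -0.14, 0.13 and 0.30 in heterozygous arrays, which overlapped as well. For the licensing genes Cdt1 and Gmnn it was 0.25, -0.34 and -0.10 against 0.00, 0.07 and 0.13. The score of the 6 G1/S regulators stayed between -0.12 and 0.15. The same score over all tested genes stayed between -0.02 and 0.03.

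**Figure D2:**
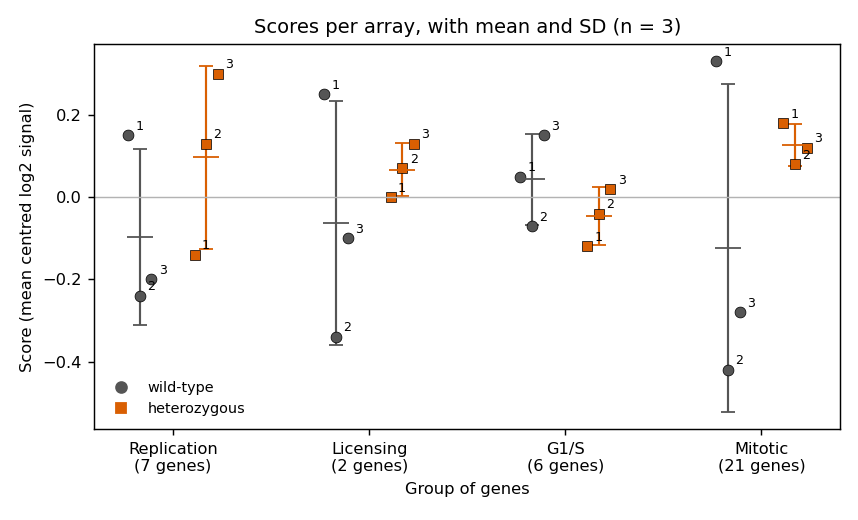
Points are the score of each array for the 4 groups of genes, numbered by replicate, with circles for wild-type and squares for heterozygous; bars give the mean and SD of 3 arrays. The wild-type mitotic scores spread over -0.12 ± 0.40 and the heterozygous ones over 0.12 ± 0.05, inside the wild-type range.

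The spread itself was uneven between genes and genotypes. The mitotic genes had a median SD of 0.41 on the log2 scale among wild-type arrays and 0.14 among heterozygous arrays. Over all tested genes these medians were 0.17 and 0.15. The replication genes had 0.25 in both genotypes. Whether the spread differs between the genotypes was not tested. In wild-type colon, replicate 1 was the highest array for 21 of 21 mitotic genes and 6 of 7 replication genes, against 29.9% of all tested genes. Among heterozygous arrays, replicate 3 was the highest and replicate 1 the lowest for 7 of 7 replication genes, against 38.6% and 34.2% of all tested genes. The mitotic genes showed no such common order there, with replicates 1, 2 and 3 highest for 7, 6 and 8 genes. The mitotic score minus the replication score was 0.31 in heterozygous replicate 1 and -0.18 in heterozygous replicate 3, and 0.18, -0.18 and -0.08 in the wild-type arrays. Genes of 1 list share the same arrays and are not independent replicates.

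Replication genes had positive fold changes at all 7 tested genes, with a median log2 of 0.20. Their arrays overlapped between the genotypes in every case. Mcm5, a helicase subunit, read 311.3, 177.9 and 203.4 in wild-type and 226, 295.7 and 339.6 in heterozygous colon. Wild-type replicate 1 lay above heterozygous replicates 1 and 2. Its log2 fold change of 0.32 (SE 0.22; limma adjusted p = 0.916) was the highest of the group.

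Mcm6, another subunit, read 663.5, 471.2 and 497.5 against 521, 657.4 and 765.1 (log2 fold change 0.24). Mcm7, which sits in the helicase core, read 1803.6, 1220.9 and 1318.6 against 1503.2, 1723.9 and 1994.1 (0.27). In both genes wild-type replicate 1 lay among the heterozygous arrays. All 4 tested probe sets of Mcm7 were positive, from 0.11 to 0.27. Pcna, the sliding clamp, read 5923.8, 4230.7 and 4744.4 against 5004.7, 5589.8 and 6404.9 (0.20, SE 0.14; limma adjusted p = 0.916).

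The remaining helicase subunits had the smallest fold changes of the group. Mcm2 read 847.2, 779.9 and 720.2 in wild-type and 689.8, 894.2 and 975.3 in heterozygous colon (log2 fold change 0.11). Mcm3 read 370.3, 285.5 and 281.9 against 282, 358.9 and 408.3 (0.15). Mcm4 read 598.8, 613 and 555.6 against 572.5, 615.2 and 657.9 (0.06), with the narrowest spread of the group. For Mcm2, the lowest of all 6 arrays was heterozygous replicate 1. Cdc6, the loading factor, was below the filter, at 65.8, 92.5 and 57.5 against 44.7, 81.5 and 73.6 (log2 difference -0.10, not tested).

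Among the licensing genes, Cdt1, which loads the helicase, read 1093.7, 790 and 887.4 in wild-type and 984.8, 1026.3 and 1203.3 in heterozygous colon (log2 fold change 0.22; limma adjusted p = 0.916). Its other tested probe set had -0.03, so the sign of Cdt1 differed between probe sets. Its inhibitor geminin (Gmnn) read 986.3, 592.8 and 743.5 against 770.5, 819.8 and 753.6 (0.04). Cdc45, which travels with the helicase, had no overlap between the genotypes, at 87.1, 19.8 and 42 against 95.9, 119.3 and 127.7. It lay below the filter and was not tested in the fit; the exact permutation p was 0.1, the smallest that 3 against 3 arrays can give. Wild-type replicate 1 again stood nearest to the heterozygous arrays.

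Of the 6 tested G1/S regulators, 1 was positive and 5 were negative, with a median log2 of -0.05, against 51.6% positive of all tested genes. The number positive depended on single arrays. It was 3 of 6 without wild-type replicate 3 and 0 of 6 without heterozygous replicate 3. Ccnd3, a D-type cyclin, read 588, 572.6 and 736.3 in wild-type and 522.7, 492.3 and 529 in heterozygous colon, and its arrays did not overlap. Its log2 fold change was -0.28 (SE 0.13; limma adjusted p = 0.892), and -0.17 without wild-type replicate 3, the highest array. Ccne2, an E-type cyclin, read 121.1, 149.5 and 169.3 against 140.8, 148 and 96.1, with log2 -0.18, and -0.01 without heterozygous replicate 3, the lowest array.

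The other D-type cyclins lay close to no difference. Ccnd1 read 1351.5, 1022.3 and 1362.4 against 1180.5, 1196.5 and 1212.1 (log2 -0.05), and 1 of its 3 tested probe sets was positive (0.16). The 6 tested probe sets of Ccnd2 ran from -0.04 to 0.06, 3 of them positive. Cdk4, the kinase partner of the D-type cyclins, read 678.8, 445.3 and 538.3 against 516.5, 547.7 and 665.4 (0.07). Cdk2, the partner of the E-type cyclins, had -0.06. Below the filter, Ccne1 had a log2 difference of -0.13, and both probe sets of E2f1, the transcription factor, read 90.4 or less in every array and had differences of -0.09 and 0.09.

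Mitotic genes had 19 of 21 tested members positive, with a median log2 of 0.23. Mki67, the proliferation marker that coats mitotic chromosomes, read 1280.5, 814.3 and 1020.9 in wild-type and 1364, 1290.7 and 1529.9 in heterozygous colon. The arrays did not overlap, but wild-type replicate 1 lay close below heterozygous replicate 2. The log2 fold change was 0.44 (SE 0.17; limma adjusted p = 0.808; exact permutation p = 0.1, the smallest possible), or a ratio of means of 1.34.

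Bub1, a spindle checkpoint kinase, had the largest fold change of the 36 genes. It read 240.5, 83.6 and 116.5 in wild-type and 237.6, 320.5 and 281.8 in heterozygous colon, and wild-type replicate 1 lay just above the lowest heterozygous array. Its log2 fold change was 0.97 (SE 0.31; limma adjusted p = 0.701). Leaving out wild-type replicate 1 gave 1.36, and leaving out wild-type replicate 2, the lowest array, gave 0.67. Bub1b, a related checkpoint protein, read 198.3, 135.5 and 168 against 177.9, 144.4 and 241.2 (0.14).

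Top2a, the topoisomerase that untangles chromosomes, read 973.3, 571.6 and 617.3 against 926.9, 930.8 and 1024.2 (log2 fold change 0.45; limma adjusted p = 0.859). Here too wild-type replicate 1 lay inside the heterozygous range. Leaving out wild-type replicates 1, 2 and 3 in turn gave 0.68, 0.30 and 0.36. Prc1, which bundles microtubules of the central spindle, read 303.1, 239.5 and 251.7 against 334.1, 375 and 332.1 without overlap (0.38; limma adjusted p = 0.807), whereas its dimmer tested probe set had -0.07.

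Among the kinesin motors, Kif11, which separates the spindle poles, did not overlap at either tested probe set. The brighter read 148.1, 136.6 and 127.6 in wild-type and 163.6, 169 and 167.2 in heterozygous colon (log2 fold change 0.25). The dimmer read 156.4, 88.2 and 90.7 against 186.7, 160.6 and 177.4 (0.62; limma adjusted p = 0.752). The remaining Kif11 probe set lay below the filter and overlapped, with a difference of -0.19. Kif23, which acts in cytokinesis, had 0.40 and Kif20a, also a cytokinesis motor, had 0.32, both with overlapping arrays. Below the filter, 1 Kif23 probe set did not overlap, at 20.8, 15.5 and 25.1 against 39.7, 39.8 and 27.9. Another had a difference of -0.19, and neither was tested. The spindle protein Nusap1 had 0.41 and read 585.7 in wild-type replicate 1, above 508.5 and 547.2 in heterozygous replicates 2 and 3.

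For 11 of the 21 mitotic genes the highest of all 6 arrays was wild-type replicate 1, against 16.1% of all tested genes, and for 15 the lowest was wild-type replicate 2, against 20.0%. Among these genes, Plk1, the Polo kinase of mitotic entry, read 400.4, 159.2 and 212.4 in wild-type and 261, 273.1 and 296.8 in heterozygous colon (log2 fold change 0.20). Aurkb, the Aurora kinase of the chromosomal passenger complex, read 291.1, 129.1 and 143.8 against 202.9, 213.2 and 190.2 (0.18). Birc5, its partner survivin, read 907.2, 393.6 and 468.7 against 604.5, 580.6 and 648.8 (0.14). In each, wild-type replicate 1 was highest, the other two wild-type arrays were lowest and the heterozygous arrays lay between.

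The same order held for Cdk1, the mitotic kinase, at 835.1, 454.5 and 427.6 against 693.7, 722.5 and 640.3 (log2 fold change 0.32). It held for Aurka, Ttk, Cdc20, Cenpa and Ccna2 too, with log2 fold changes of 0.23, 0.29, 0.21, 0.08 and 0.02. These encode an Aurora kinase of the spindle poles, a checkpoint kinase, an activator of the anaphase-promoting complex, the centromeric histone and cyclin A2. Ccnb2, a B-type cyclin, read 727.2, 375.7 and 479.6 against 775.1, 521.1 and 476, with log2 0.18.

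Foxm1 and Mad2l1 were the 2 tested mitotic genes with negative fold changes. Foxm1, a transcription factor of late cell cycle genes, read 215.4, 203 and 153.3 in wild-type and 162.8, 120.9 and 148.4 in heterozygous colon (log2 fold change -0.36, SE 0.18; limma adjusted p = 0.9). The arrays overlapped. Its other probe sets lay below the filter, with differences from -0.25 to 0.07. Mad2l1, a checkpoint protein, had -0.03. Cenpe, a kinetochore motor, was below the filter at every array, with 45.4 or less and a difference of -0.24.

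**Figure D3:**
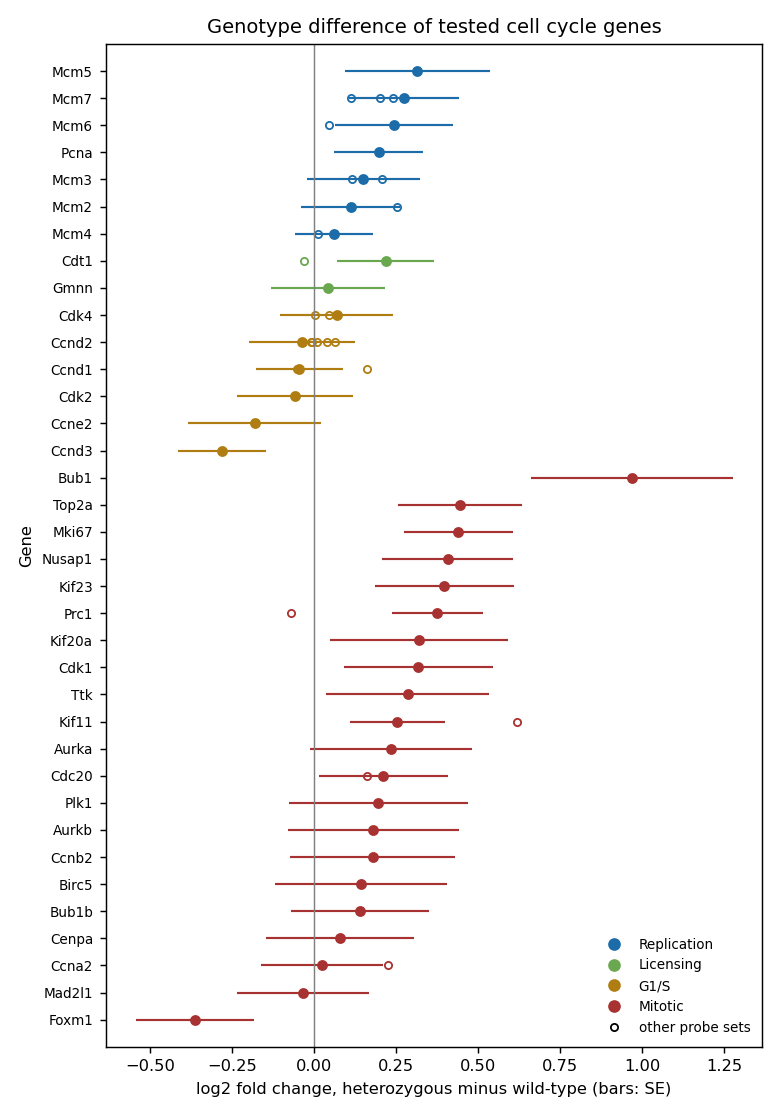
Filled points give the log2 fold change of the brightest probe set of each tested gene, with its SE, and open points the gene's other tested probe sets. Replication genes lie between 0.06 and 0.32, G1/S regulators between -0.28 and 0.07 and mitotic genes between -0.36 and 0.97.

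The brightest probe sets of Mcm2, Mcm3, Mcm7, Cdk4, Cdc20, Aurkb and Prc1 are of the manufacturer's kinds that can also bind transcripts of other genes. Of 13 genes with several tested probe sets, 9 had the same sign at all of them, and Ccnd1, Ccnd2, Cdt1 and Prc1 had both signs. Over the 58 tested probe sets, 46 were positive, against 50.7% of all tested probe sets. At an unadjusted p under 0.05, 5 were higher and 0 lower, against 3.12% and 2.56% of all tested probe sets, 5.69% together. The arrays did not overlap at 4 that were higher and 1 that was lower, against 5.26% and 5.10%.

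The group medians depended on single arrays. The mitotic median was 0.50 without wild-type replicate 1, with 20 of 21 genes positive. It was 0.05 with wild-type replicate 2 left out (12 of 21 positive) and 0.15 with wild-type replicate 3 left out. Without each heterozygous array in turn it was 0.27, 0.24 and 0.25. The replication median was 0.33, 0.11 and 0.17 without wild-type replicates 1, 2 and 3, and 0.29, 0.20 and 0.105 without heterozygous replicates 1, 2 and 3. All 7 genes had a positive sign in each case, but Mcm2, Mcm3 and Mcm4 had log2 fold changes of 0.009, 0.035 and 0.012 without heterozygous replicate 3, and 0.25, 0.29 and 0.11 without heterozygous replicate 1. Pcna ran from 0.088 to 0.33, Mcm5 from 0.16 to 0.54 and Mcm7 from 0.16 to 0.44, lowest without wild-type replicate 2 and highest without wild-type replicate 1. Mcm6 ran from 0.12, without heterozygous replicate 3, to 0.39, without wild-type replicate 1. The median over all 36 genes ran from 0.06 (wild-type replicate 2 left out) to 0.37 (wild-type replicate 1 left out). The median over all tested genes stayed between -0.005 and 0.018.

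**Figure D4:**
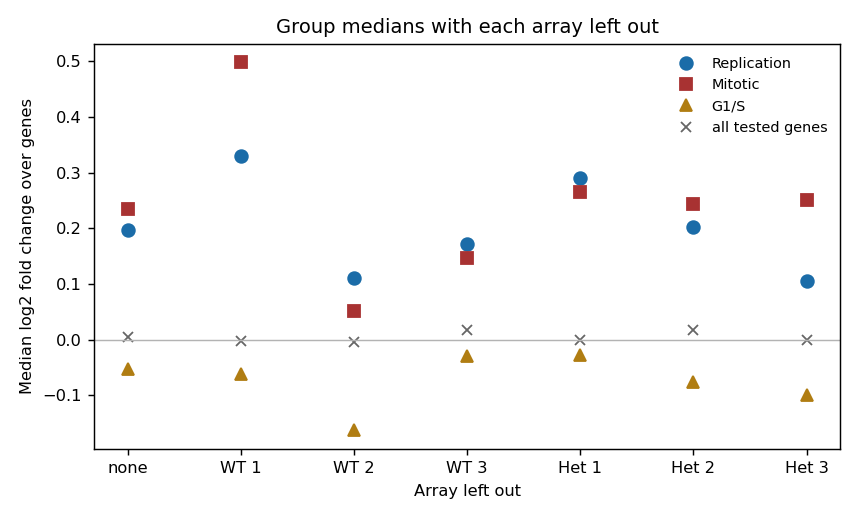
Points give the median log2 fold change, heterozygous minus wild-type, of the replication, mitotic and G1/S genes and of all tested genes, with all arrays (none) or without the array named on the axis. The mitotic median moves between 0.05 and 0.50 with the wild-type array left out and between 0.24 and 0.27 with a heterozygous one left out.

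Further genes of the cycle, listed by function, were also mostly positive, against 51.6% of all tested genes. They were read on the same arrays and give no independent replication of the values above. Their medians were not computed with single arrays left out. Of 31 tested genes of DNA replication, 28 were positive, with a median log2 of 0.20. These include Rpa1, the single-strand binding protein (0.26; limma adjusted p = 0.859), Orc6 of the origin recognition complex (0.34) and the replication kinase Cdc7 (0.33). Of 37 tested mitotic genes, 33 were positive, with a median of 0.20. Among them Sgo1, which protects centromeric cohesion, read 146.8, 124.2 and 177.7 in wild-type and 210.1, 222.1 and 205.2 in heterozygous colon (0.48; limma adjusted p = 0.750). Anln, a cytokinesis scaffold, had 0.45 and the kinesin Kif2c had 0.34.

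For the further mitotic genes the score was 0.21, -0.29 and -0.21 in wild-type and 0.14, 0.11 and 0.04 in heterozygous arrays, with wild-type replicate 1 highest and the other two wild-type arrays lowest. For the further replication genes it was 0.14, -0.22 and -0.16 against 0.03, 0.04 and 0.18, which is the order of the arrays in the replication score. Of 12 tested further G1/S genes, a list that mixes activators and repressors of the cycle, 10 were positive (median 0.13). E2f6 had 0.38, Rbl2 had 0.24 and Rbl1 had 0.20, and all of these encode repressors of E2F target genes. Of 9 tested inhibitors of the cycle, 5 were positive and 4 negative (median 0.02). Cdkn1b, which encodes p27, had 0.29, Cdkn2b had -0.33 and Cdkn1c had -0.26. None of these genes passed limma at an adjusted p of 0.05. At an unadjusted p under 0.05, 1 of 31 replication, 4 of 37 mitotic, 1 of 12 G1/S and 0 of 9 inhibitor genes were higher, and 0 were lower, against 3.18% and 2.22% of all genes. The replication count lies at that background.

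Markers of cell types were read beside these scores. Of 11 crypt genes listed, 9 were tested, and their score was -0.05, -0.11 and 0.25 in wild-type and -0.02, -0.10 and 0.03 in heterozygous arrays. Lgr5, the crypt stem cell receptor, read 189.6, 217.6 and 235.7 against 174.8, 206.6 and 218.7. Wild-type replicate 1, the highest array for mitosis, was not the highest for the crypt list. The colon epithelium score stayed between -0.15 and 0.09. Smooth muscle (8 of 8 tested) was highest in wild-type replicate 3 at 0.38 and lay between -0.26 and 0.13 elsewhere.

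Lymphocyte and ileal markers varied more. T-cell markers, 3 of 7 on the array tested, scored -0.49, -0.38 and -0.21 in wild-type and -0.19, 0.51 and 0.76 in heterozygous arrays. This score did not overlap between the genotypes, but wild-type replicate 3 and heterozygous replicate 1 lay close together, and the difference was not tested. Heterozygous replicate 3 was highest in both the T-cell and the replication score. Wild-type replicate 1 was lowest in the T-cell score but second highest in the replication score, at 0.15. All 3 tested T-cell genes had positive fold changes, against 51.6% of all tested genes. Cd3d read 88, 81 and 109.8 in wild-type and 109.5, 197.7 and 304.7 in heterozygous arrays. Its wild-type mean of 92.93 lay below the filter signal of 93.3, so it was tested only through its heterozygous arrays, which favours a positive sign. Cd4 read 25.9 or less in every array. Of 8 B-cell genes on the array 2 were tested, and their score ran from -0.79 in wild-type replicate 2 to 1.07 in wild-type replicate 3, with Ms4a1 between 34.9 and 279.7. Genes listed as ileal markers (6 of 9 tested) ran from -1.47 in wild-type replicate 3 to 1.28 in wild-type replicate 2, the 2 arrays lowest in the mitotic score. The members were uneven: Fabp6 read between 93.5 and 5661.9 and Apoa1 between 29.5 and 7711.8, whereas Mep1a stayed between 5365.2 and 6519.7. The part of these markers in the cell cycle values was not tested.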

How the data were processed

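RNA from 6 colons was hybridised to 6 expression arrays, and the deposited table holds 1 intensity per probe set and array, scaled by the authors to a common level: the mean without the top and bottom 2% was equal on all arrays. GCOS is named in the submitters' processing notes; the sources used here give neither its version nor any background correction. Of 22690 probe sets, 64 controls were left out. Intensities entered as log2(signal + 16) without further normalization, and probe sets below the 40th percentile of mean log2 signal were left out. The genotypes were compared over 13576 probe sets with limma 3.58.1 in R 4.3.3 (eBayes with a variance trend, two-sided, Benjamini-Hochberg adjustment over all of them). The pseudocount understates fold changes of dim genes, and a common scale hides changes in total RNA per cell. Precision is limited by having 3 arrays in each genotype.

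Gene names came from the platform annotation, in which 20380 probe sets have 1 symbol, 691 several and 1555 none; the GRCm38.p6 gene table altered 0 of them. The members and all lists were chosen with earlier results of these data known, so their medians and scores carry no p. Named with values in every array were Mki67, Pcna, Cdc6, Mcm2 to Mcm7, and up to 4 further members of each role by smallest p; of the further cell cycle lists, up to 3 by smallest p were named with their log2 fold change. Other genes given by array were chosen after their values were seen. The fit was tested on simulated data. Alternatives covered normalization, pseudocount, filter, variance model, array weights, a replicate block, each array left out and the choice of probe set.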

Additional observations from a re-analysis of the deposited data

How the results depend on the processing

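The number of probe sets past an adjusted p of 0.05 in limma was 0 (772 at an unadjusted p under 0.05), 8 with robust variance and 4 with array weights; leaving out single arrays gave 0 to 39, 39 when heterozygous replicate 1 and 2 when wild-type replicate 3 was left out. None was a probe set of the cell cycle genes under any of these settings, and the cause was not tested. At an unadjusted p under 0.05, 444 rather than 772 passed without heterozygous replicate 3 and 443 with the filter at the 60th percentile, which tests fewer probe sets. With single arrays left out, the median log2 fold change ran from 0.105 to 0.33 for the replication genes, from 0.05 to 0.50 for the mitotic genes and from 0.06 to 0.37 for all 36 genes; under the other settings it ran from 0.17 to 0.22, 0.20 to 0.26 and 0.15 to 0.20. Mki67 ran from 0.28 to 0.60, with a limma adjusted p between 0.633 and 1.

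Of 17 tested genes named by rule, 14 kept their sign under all 16 settings that gave a value. Some of them were chosen by smallest p in the main fit, which favours a kept sign. Over all 21 tested mitotic genes, 19 were positive with all arrays and 12 without wild-type replicate 2. Ccnd1 turned to 0.021 with all its probe sets averaged, and with single arrays left out ran from -0.18 to 0.025, positive without wild-type replicate 1 or 3. Gmnn turned to -0.13 without wild-type replicate 2 and reached 0.23 without wild-type replicate 1. Cdk4 turned to -0.075 without wild-type replicate 2 and to -0.04 without heterozygous replicate 3. Equal replicate numbers showed no regular pairing: the correlations of same-numbered deviations were -0.12, 0.49 and 0.04. Wild-type replicate 3 correlated best with heterozygous replicate 1 (0.42). The labels state no pairing, and these correlations cannot exclude one. With replicate number as a block, 0 probe sets passed, 921 had an unadjusted p under 0.05 and Mki67 had a limma adjusted p of 0.633. Without a measured background, it is not known which of the dim probe sets lie above it.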
